A study of Homo sapiens with 6 samples.

Results

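NeuroD1 binding was mapped in 2 established small cell lung cancer lines, H82 and H524, and this account covers the NeuroD1 regions that both lines shared and that also lay on the histone mark H3K4me3. These were the listed H82 NeuroD1 regions that touched, by at least 1 bp, a listed H524 NeuroD1 region and also a listed H3K4me3 region of H82 or of H524. The rule gave 758 of 3854 H82 NeuroD1 regions, or 19.7% (95% exact binomial interval 18.4 to 21.0). The members were therefore chosen by measured overlap, and their number is a description of the lists. They are called shared marked regions here.

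Both lines were grown in culture without treatment, and chromatin immunoprecipitation with sequencing was done with an antibody to NeuroD1, with an antibody to H3K4me3, and on input chromatin. Each line gave 1 library of each kind, 6 in all, so there was no replicate, no p-value was computed, and every difference between lines is also a difference between single libraries. The 4 antibody libraries gave 1 list of enriched regions each, and the input libraries were not analysed here. H82 and H524 are each 1 established line, and a listed region gives no share of cells or alleles that were bound. Intervals below are 95% intervals that cover counting error only, and they treat regions as independent, which neighbouring regions are not. The read depth behind the lists is unknown.

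NeuroD1 is a basic helix-loop-helix transcription factor that pairs with E proteins, binds the short DNA element called the E-box, and drives neuronal and endocrine differentiation. In small cell lung cancer its expression marks one of the neuroendocrine subtypes. H3K4me3, trimethylated lysine on histone H3, is laid down on nucleosomes at active and poised promoters, typically on both sides of a transcription start site, while the start site itself often has few nucleosomes. A factor that binds at a promoter can therefore lie on the marked nucleosomes or in the gap between them. Coordinates are in hg19, and genes are not assigned to regions, since no annotation of that build was used here.

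The H82 NeuroD1 list held 3854 regions and the H524 NeuroD1 list 20593, against 18208 and 18595 regions in the H82 and H524 H3K4me3 lists. Besides the shared marked regions, the H82 list held 1308 regions shared with H524 without the mark, 460 found in H82 alone with the mark, and 1328 found in H82 alone without it. In H524, the shared marked regions had 762 distinct partner regions, or 3.70% of that list. Of the 758, 751 had 1 partner, 6 had 2 and 1 had 3.

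The partners lay close on top of the H82 regions. The median H82 region had 92.8% of its length covered by H524 NeuroD1 (quartiles 68.6% and 100%), and 301 of 758 (39.7%, 36.2 to 43.3) were wholly covered. The middles of the H82 region and its partner were a median of 116.5 bp apart, and 343 pairs (45.3%) were within 100 bp. The partner was the wider of the pair in 506 cases (66.8%).

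Near the limits of the rule, 61 shared marked regions rested on an overlap of at most 50 bp. The shortest were chr7:112579906-112580223 with 1 bp, chr6:66417070-66417545 with 2 bp and chr1:28052068-28052539 with 3 bp of H82 H3K4me3. Just outside, 60 regions lacked one of the required lists but lay within 50 bp of it. In these distances, adjoining regions with no base between them stand at 1 bp. For example, chr16:30064099-30064493, chr22:37172153-37172605 and chr17:40829092-40829791 were shared by both lines and stood at 1 bp from the mark. Their H82 ranks of 1630, 482 and 2960 spanned a range like that of the 3 just inside, at 2387, 326 and 503. The number of regions was 515 when each overlap had to cover at least 50% of the shorter region and 1089 when gaps of up to 1 kb were allowed. It fell to 327 when each list was limited to scores at or above its median, to 277 when the H524 NeuroD1 list was limited by score to the length of the H82 list, and to 372 when the mark was required in both lines.

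The shared marked regions were common among the highest scores of the H82 NeuroD1 list. The score is the authors' value for each region, read here as −log10 of an adjusted p-value, and it is used only to rank regions within a list. With the list in 10 classes of equal size, the shared marked regions made up 10.1% (7.30 to 13.6) of the lowest class, 17.1% of class 4, 25.5% of class 2 and 41.5% (36.5 to 46.5) of the highest. Sharing moved the same way, with 151 of 385 regions of the lowest class and 313 of 386 of the highest also in the H524 list. Within the shared regions alone, 25.8% (19.1 to 33.6) of the lowest class carried the mark, shares of 32.0% to 37.3% were seen in classes 9 to 2, and 51.1% (45.4 to 56.8) of the highest class carried it. The step was thus at the highest class.

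**Figure D1:**
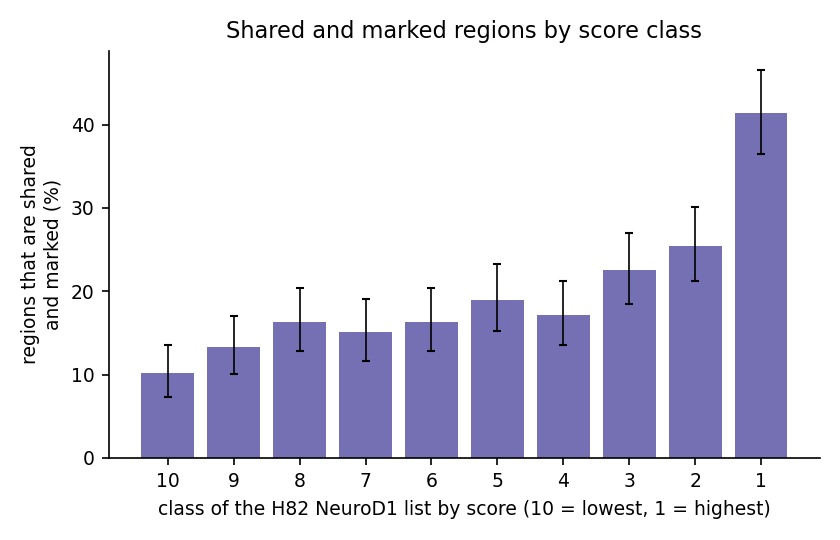
Share of H82 NeuroD1 regions that were shared with H524 and marked by H3K4me3, in percent, for 10 classes of the H82 list from the lowest score (class 10) to the highest (class 1); bars start at 0 and whiskers are 95% exact binomial intervals. The share was 10.1% in the lowest class and 41.5% in the highest.

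The score of the shared marked regions stood higher than that of the other shared regions in H82 and lower in H524. Their median H82 score was 4.65, at percentile 64.9 of the list (60.9 to 68.8), against 4.07 and percentile 57.2 (54.9 to 59.9) for the 1308 shared regions without the mark. Their median partner score in H524 was 6.53, at percentile 71.5 (68.5 to 73.4), against 7.50 and percentile 77.0 (75.5 to 79.0). The members minus unmarked difference was 7.65 percentile points in H82 (2.96 to 12.3) and −5.55 in H524 (−8.56 to −2.55). When each overlap had to cover at least 50% of the shorter region, the H82 difference was 0 (−5.31 to 5.31), and with the mark required in both lines it was 4.20 (−2.47 to 10.9). With each list limited to scores at or above its median, it was 4.24 (0.935 to 7.55) in H82 and −2.14 (−5.24 to 0.959) in H524. When the NeuroD1 lists were cut to equal length, the difference was 18.5 (12.5 to 24.6) in H82 and −0.699 (−2.26 to 0.865) in H524.

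Width moved with the score. The median H82 width was 478.5 bp (459 to 498) for the shared marked regions, 436.5 bp for the shared regions without the mark and 411 bp for the marked regions of H82 alone. A wider region has more bases with which to touch another list, and the part of width in these differences was not tested. In H524 the order was the other way, with a median partner width of 625.5 bp for the shared marked and 682.5 bp for the shared unmarked regions.

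Regions with several summits were also more common among them. In the whole H82 list 5.71% of regions had more than 1 summit. Of the shared marked regions 79 of 758 did (10.4%, 8.34 to 12.8), against 5.73% of the shared unmarked regions, a difference of 4.69 points (2.27 to 7.32). Against the marked regions of H82 alone, at 3.91%, the difference was 6.51 points (3.56 to 9.28). The shared marked regions were also wider and higher in H82 score than either of these sets. The part of width and score in the summit counts was not tested.

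The ranks in both lines went together loosely. Across the 758 shared marked regions Spearman's rho between the H82 percentile and the H524 percentile was 0.400, against 0.265 across the shared unmarked regions, as a description of points that come from the same 2 libraries. A total of 381 (50.3%, 46.6 to 53.9) were above the median of both lists and 109 (14.4%) below it in both. Of the 1308 shared unmarked regions, 619 (47.3%, 44.6 to 50.1) were above both medians and 170 below both. The shares above both medians were thus close, and their intervals overlap. The highest 10% of both lists held 79 of the shared marked regions (10.4%, 8.34 to 12.8) and 90 of the 1308 shared unmarked ones (6.88%, 5.57 to 8.39). Of the whole H82 list 4.39% was in it. Regions without an H524 partner could not be counted there, so that share is low by construction and is no baseline for shared regions.

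**Figure D2:**
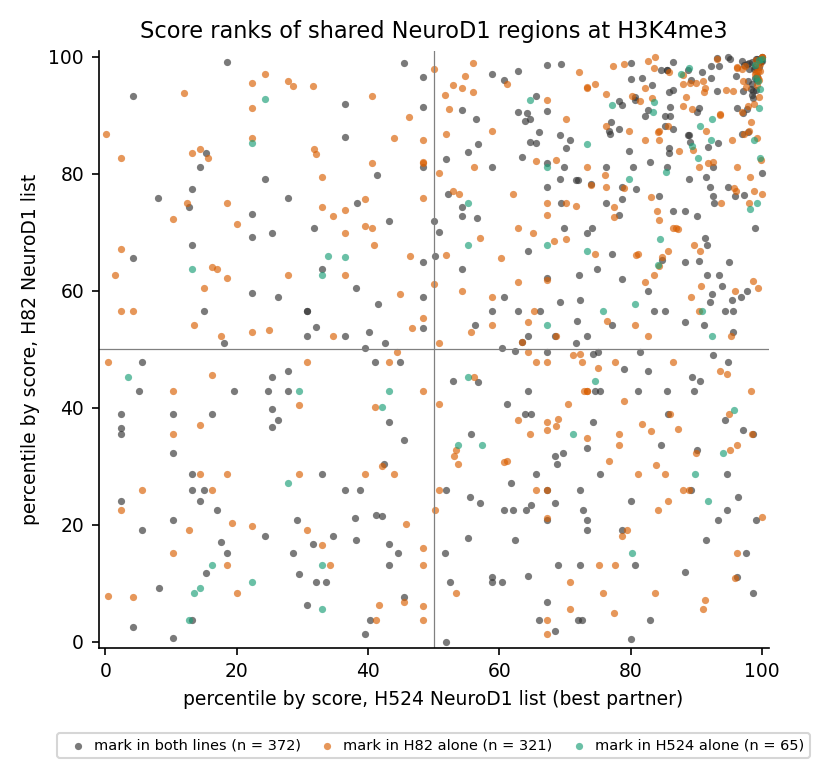
Percentile by score of each of the 758 shared marked regions in the H82 NeuroD1 list (vertical axis) and of its best partner in the H524 NeuroD1 list (horizontal axis), coloured by which line had the mark there; grey lines are the 50th percentiles. The points fill all 4 quadrants, 381 of them at the upper right, with a dense cluster at the corner where both percentiles are highest.

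The mark was listed in both lines at some of these regions and in 1 line at others. It stood in both lines at 372 shared marked regions (49.1%, 45.5 to 52.7), in H82 alone at 321 (42.3%, 38.8 to 46.0) and in H524 alone at 65 (8.58%, 6.68 to 10.8). The H82 mark was thus listed at 693 and the H524 mark at 437. Among the 460 marked regions that H524 did not share, these counts were 439 and 176. The lean to the H82 mark was therefore not particular to the shared regions. Because the regions tested are the H82 ones, the test for the mark in H524 uses an interval called in the other line. Among the 321 with the mark in H82 alone, the H524 partner region touched H524 H3K4me3 in 61, and 150 (46.7%, 41.2 to 52.4) lay within 1 kb of it. Another 65 (20.2%) were over 50 kb from any listed H524 mark. Of the 65 with the mark in H524 alone, 44 (67.7%, 54.9 to 78.8) lay within 1 kb of listed H82 H3K4me3, at a median distance of 298 bp over all 65. Allowing gaps of up to 1 kb in every overlap gave 67.3% with the mark in both lines, 26.7% in H82 alone and 5.97% in H524 alone.

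The H82 mark under the shared marked regions had a median percentile of 77.3, against 78.6 under the marked regions of H82 alone, and the H524 mark 74.3 (69.4 to 78.4), against 61.6 (55.0 to 68.0). The median widths were 987 bp against 986 bp on the H82 mark and 796 bp against 806.5 bp on the H524 mark. Among the shared marked regions, the H82 mark ranked higher where both lines had the mark. The H82 mark under the 372 had a median percentile of 84.6 and a median width of 1207 bp, against percentile 67.0 and 825 bp under the 321 with the mark in H82 alone. The H524 mark had a median percentile of 75.9 (69.8 to 79.0) under the 372, against 68.0 (61.4 to 77.6) under the 65 with the mark in H524 alone. Those intervals overlap, and the H524 mark widths were 808.5 bp (740 to 906) and 773 bp (546 to 893). Over the whole H3K4me3 lists the median widths were 563 bp (H82) and 526 bp (H524). Wide regions are likelier to be touched, so the widths are given as values. The score of NeuroD1 and that of the mark hardly moved together, with rho 0.0047 in H82 (693 regions) and 0.171 in H524 (437 regions).

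Most shared marked regions lay across an edge of the mark rather than inside it, as did most marked H82 NeuroD1 regions. In H82, 430 of 693 (62.0%, 58.3 to 65.7) crossed an edge, where 58.1% of all H82 NeuroD1 regions on that mark did. Of the same 693, 227 (32.8%, 29.3 to 36.4) lay wholly inside a marked region and 36 spanned one. On the H524 mark, 333 of 437 (76.2%, 71.9 to 80.1) crossed an edge, where 72.1% of all H82 NeuroD1 regions on it did, and 86 (19.7%, 16.1 to 23.7) lay inside. The marked regions of H82 alone crossed an edge in 51.9% (47.1 to 56.7) on the H82 mark and in 61.9% (54.3 to 69.1) on the H524 mark. The middle of the NeuroD1 region was a median of 375.5 bp from the middle of the H82 mark (350 to 402) and 367 bp from that of the H524 mark. The distance in H82 was 308 bp (266.5 to 334) with the rule of 50% of the shorter region, and 555 bp with gaps of up to 1 kb.

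Arrangements of 3 kinds around the NeuroD1 middle were counted within 1 kb, namely the middle covered by the mark, the mark on both sides with a bare middle, and the mark on 1 side only. For the H82 mark the middle was covered in 452 of 693 shared marked regions (65.2%, 61.5 to 68.8), where the share over all H82 NeuroD1 regions on that mark was 68.1%. The mark stood on both sides of a bare middle in 87 (12.6%, 10.2 to 15.3), against 11.0% over all H82 NeuroD1 regions on it. For the H524 mark the middle was covered in 226 of 437 (51.7%, 46.9 to 56.5), against 55.0%. It flanked a bare middle in 88 (20.1%, 16.5 to 24.2), against 17.6%. All 4 shares are near those of the whole list, which includes the shared marked regions. Set against the marked regions that H524 did not share, the flanked arrangement was 4.13 points more frequent on the H82 mark (0.390 to 7.62) and 8.77 points more frequent on the H524 mark (2.23 to 14.4). The unshared ones scored lower, at a median H82 percentile of 40.7 against 64.9, and the part of score was not tested. Score bands were percentiles 0 to 25, 25 to 50, 50 to 75, 75 to 90 and 90 to 100. In that order the H82 mark gave 7.96%, 10.1%, 11.2%, 13.6% and 19.2%, against 8.57%, 1.55%, 12.9%, 12.5% and 17.2%. The H524 mark gave 12.3%, 14.6%, 20%, 21.5% and 31.1%, against 18.0%, 5%, 8.11%, 13.3% and 33.3% (1 of 3).

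The 372 regions with the mark in both lines allow the marks to be compared at the same places. The H82 mark covered the middle in 266 (71.5%, 66.6 to 76.0) and the H524 mark in 201 (54.0%, 48.8 to 59.2). At these places the H82 mark had the larger median width, 1207 bp against 808.5 bp for the H524 mark. The part of mark width in these shares and in those below was not tested. A bare middle between marked sides was seen in 41 (11.0%, 8.03 to 14.7) in H82 and in 74 (19.9%, 16.0 to 24.3) in H524, and in 21 regions in both lines. The middle was covered in both lines at 176 regions. Where only the H82 mark covered it, the H524 mark flanked a bare middle at 39 regions and stood on 1 side at 51. Where only the H524 mark covered it, the H82 mark did so at 12 and 13. The intervals treat each share alone, although both marks were counted at the same regions. The middle used is that of the H82 region. Around the middle of the H524 partner, the H82 mark left a bare middle between marked sides in 15.3% (11.8 to 19.4). The H524 mark did so in 20.4% (16.4 to 24.9), and these intervals overlap. The middle of the partner was covered by the H82 mark in 67.7% and by the H524 mark in 54.8%. With the rule of 50% of the shorter region the flanked shares were 1.60% in H82 and 4.28% in H524, since that rule keeps few regions with a bare middle.

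The higher a shared marked region scored in H82, the less often its middle was covered by the mark. For the H82 mark the covered share was 76.1% at percentiles 0 to 25, 72.7% at 25 to 50, 67.6% at 50 to 75, 57.6% at 75 to 90 and 53.4% at 90 to 100. For the H524 mark the same bands gave 77.8%, 67.1%, 52.4%, 36.7% and 26.7%. Above percentile 75, the H82 mark covered the middle in 150 of 271 (55.4%), against 187 of 252 (74.2%) up to percentile 50, a difference of −18.9 points (−26.6 to −10.7). The H524 mark covered it in 53 of 169 (31.4%), against 118 of 163 (72.4%), a difference of −41.0 points (−50.1 to −30.7). This pattern was looked for after the values had been seen.

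The order of the high and low scores at the middle did not extend to both sides. At 500 bp to the left the H524 mark covered 52.7% of the regions above percentile 75 and 55.8% of those up to percentile 50, and at 500 bp to the right 54.4% (46.6 to 62.1) and 42.3% (34.6 to 50.3), the reverse of the order at the middle. The H82 mark covered 62.4% and 61.9% on the left, and 53.5% (47.4 to 59.6) and 50% (43.7 to 56.3) on the right. The mark on both sides of a bare middle was found in H82 at 28 of 146 regions (19.2%) above percentile 90, against 9 of 113 (7.96%) up to percentile 25.

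**Figure D3:**
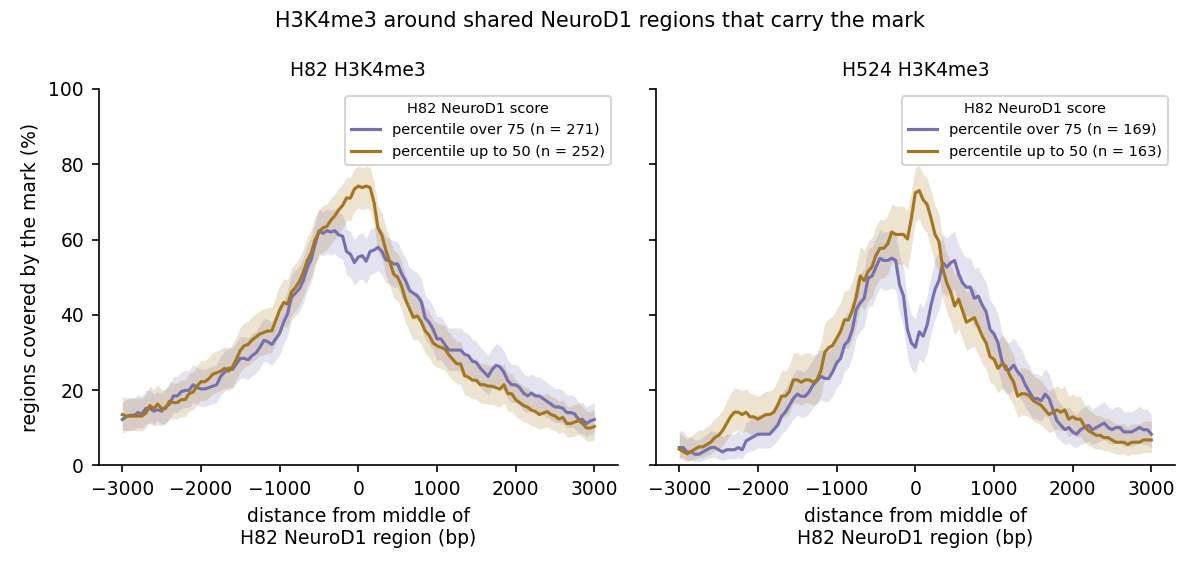
Share of shared marked regions covered by H82 H3K4me3 (left) and H524 H3K4me3 (right), in percent, against the distance in bp from the middle of the H82 NeuroD1 region, for regions above percentile 75 and up to percentile 50 by H82 NeuroD1 score; shading is the 95% exact binomial interval. At the middle the H524 curve stands at 31.4% for high scores and 72.4% for low scores, and the H82 curve at 55.4% and 74.2%.

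Width rises with score, and a wide region can reach a mark that its middle does not. The regions above percentile 75 had a median width of 571 bp, against 411.5 bp up to percentile 50, among those on the H82 mark. Among regions up to the median width the difference was −23.0 points for the H82 mark (−34.5 to −11.3) and −28.0 for the H524 mark (−42.6 to −12.1). Among wider regions it was −8.72 points for the H82 mark (−20.6 to 3.97) and −44.1 for the H524 mark (−56.4 to −29.0). With the H524 score and the middle of the H524 partner, the difference was −8.45 points on the H82 mark (−17.0 to 0.450) and −15.8 on the H524 mark (−26.6 to −4.44). With NeuroD1 lists of equal length it was −14.0 points on the H82 mark (−27.9 to 1.84) and −52.4 on the H524 mark (−66.1 to −32.5). The direction was negative in each of these, but the interval on the H82 mark included 0 among wide regions, by H524 score and with lists of equal length. Among marked regions that H524 did not share, the difference was −17.9 points on the H82 mark (−30.6 to −6.06) and −22.5 on the H524 mark (−43.8 to 1.04), the second resting on 8 of 18 regions above percentile 75. The rule of 50% of the shorter region gave −9.16 points on the H82 mark and −23.6 on the H524 mark.

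The 10 shared marked regions outside chromosome 8 that ranked highest in both NeuroD1 lists show these arrangements one by one. Of these, 4 lie on chromosome 19, 3 on chromosome 17 and 1 each on chromosomes 14, 9 and 2. The mark was listed over 6 of them in both lines, over 2 in H82 alone and over 2 in H524 alone. The H82 mark covered the middle of 1 of them and the H524 mark of none. These 10 are picked cases. Over all shared marked regions above percentile 90 in H82, the H82 mark covered the middle of 78 of the 146 that carried it (53.4%). The H524 mark covered the middle of 24 of 90 (26.7%).

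On chromosome 17, chr17:79818252-79819013 (762 bp) ranked 13 in H82 with a score of 41.8, and its partner ranked 48 in H524 with 52.5. The mark touched its left edge over 271 bp (H82) and 184 bp (H524), and both marks also lay on its right, leaving the middle bare. The next on that chromosome, chr17:57231676-57233241, was 1566 bp wide with 2 summits and ranked 22 in H82 and 19 in H524. Its middle was covered by an H82 mark of 3.27 kb, whereas the H524 mark of 1.79 kb stopped short of it. At chr17:45972798-45973793, ranked 38 and 52, both marks flanked a bare middle.

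On chromosome 19, chr19:10828091-10828831 ranked 16 in H82 (score 38.4) and 13 in H524 (score 108). Only H524 had the mark there, over 108 bp at its right end, and no listed H82 mark lay within 1 kb of its middle. The region chr19:39340197-39341371 ranked 28 and 34 and had a narrow mark of 613 bp in H82, rank 85 of that H3K4me3 list, with a bare middle and a marked far side in both lines. At chr19:41769388-41770484, ranks 14 and 142, the H82 mark within 1 kb stood on 1 side and the H524 mark on both. The last of the 4, chr19:42772615-42773423, ranked 46 and 170 and had the mark in H82 alone, on both sides of its middle.

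The other 3 differed in mark. The region chr14:58764654-58765436, ranks 21 and 86, overlapped an H524 mark of 1.42 kb by 143 bp, while the H82 mark came within 1 kb of its middle without touching it. At chr9:131842719-131843679, ranks 17 and 178, both marks lay on the right side only, at percentile 76.1 of the H82 list and 56.6 of the H524 list. The region chr2:115918527-115919035, ranks 25 and 196, overlapped a low-scoring H82 mark (percentile 39.9) by 80 bp, and no H524 mark touched it.

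**Figure D4:**
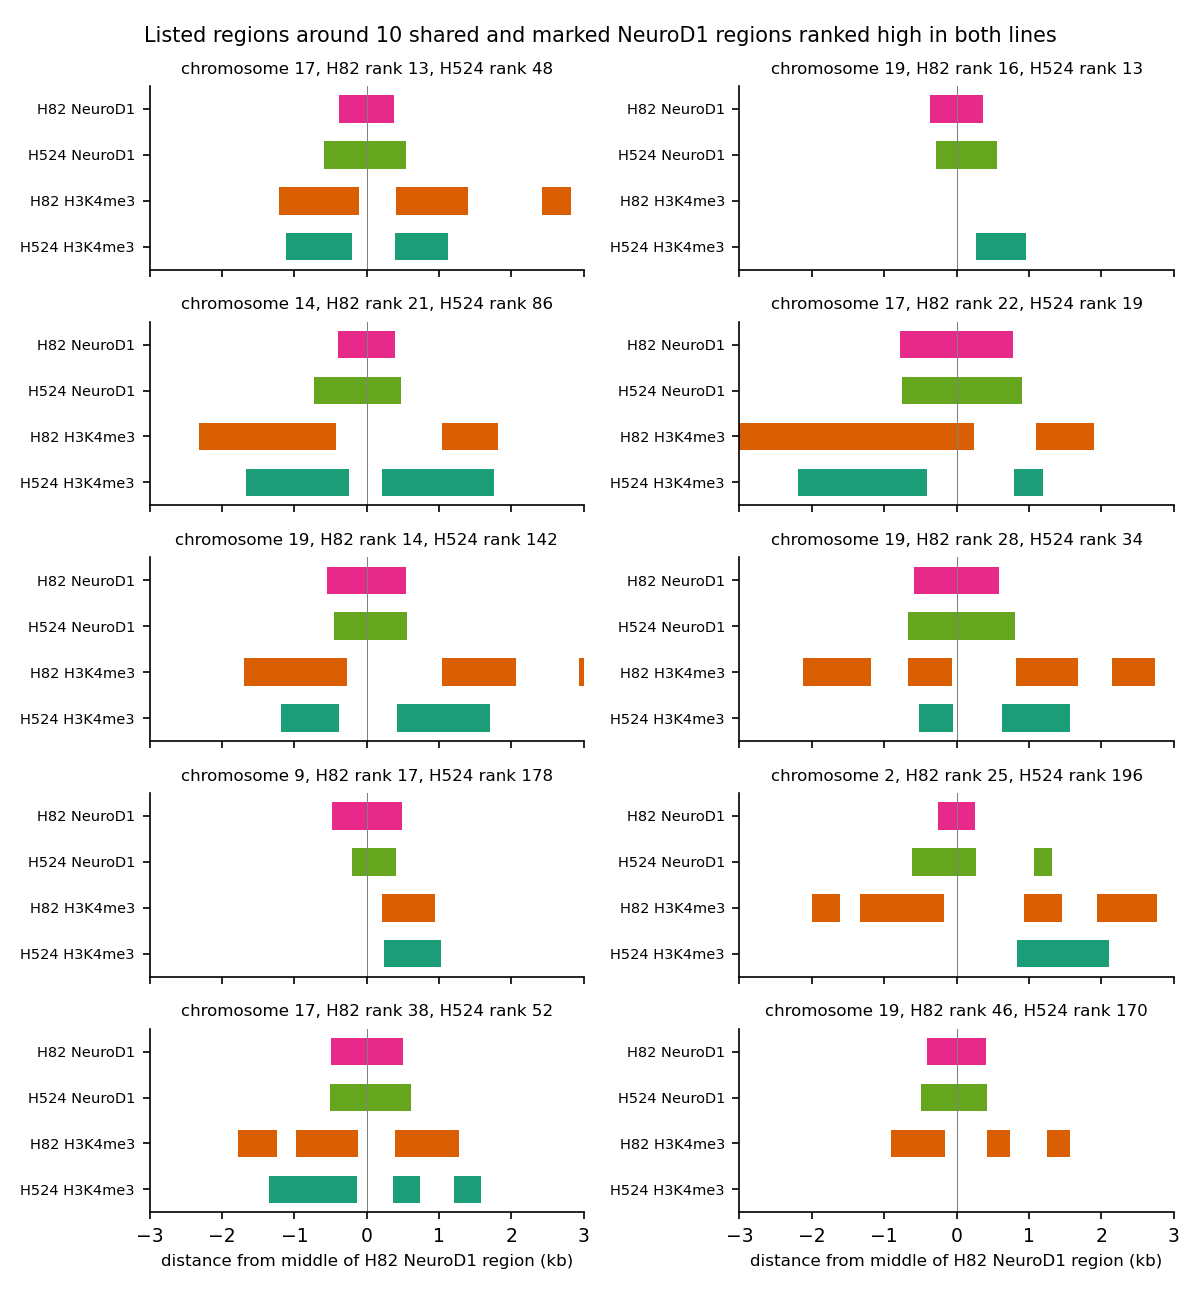
Listed regions of the 4 libraries around the 10 shared marked regions with the highest ranks in both NeuroD1 lists outside chromosome 8, drawn to scale against the distance in kb from the middle of the H82 NeuroD1 region; each bar is 1 listed region, and the vertical line marks the middle. The H524 mark crosses the line in none of the 10 and the H82 mark in 1, while NeuroD1 of both lines covers it in all.

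Chromosome 8 held 31 shared marked regions, 13.9% of its 223 H82 regions. The H82 region ranked 1, chr8:128310003-128314497, was 4495 bp wide with 8 summits and a score of 166, and its H524 partner ranked 6 with a score of 249.7. The H82 mark there, 3.77 kb wide, ranked 3 in its list, whereas the H524 mark of 571 bp ranked 18493. Ranked 2 in both NeuroD1 lists, chr8:128657760-128659306 lay inside an H82 mark of rank 14 and had no H524 mark, and its partner was 10.2 kb wide with 19 summits. Also there, chr8:128387301-128389664, ranked 4 in both and held an H82 mark of 333 bp. At chr8:128746144-128749340, rank 31 in H82 and 9 in H524, the mark ranked 2 in both lines, over 8.66 kb in H82 and 7.21 kb in H524. All the chromosome 8 regions named here lie within chr8:128310003-128749340. The H82 mark covered the middle of each of them, and the H524 mark that of chr8:128746144-128749340 alone. Since the input libraries were not analysed, the part of DNA copy number in the scores of this stretch was not tested. The ranks there are therefore not read as strength of binding or of the mark.

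The mark status of the highest H82 regions varied. The second highest with the mark in both lines, chr19:18302937-18304084, ranked 5 in H82 with a score of 64.5 and its partner ranked 1075 in H524, with low marks at percentile 13.6 in H82 and 24.1 in H524. For chr2:88926941-88927652, rank 9 in H82 and 1394 in H524, the marks stood at percentile 41.3 and 4.68. At chr17:8059645-8060108, rank 18 in H82 and 1394 in H524, a strong H82 mark (rank 457) overlapped by 71 bp and no H524 mark did. With the mark in H524 alone, chr11:13298793-13299337 ranked 54 in H82 and 204 in H524, on an H524 mark of rank 1838.

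Chromosome 19 stood out for its share. Of its 189 H82 NeuroD1 regions 83 were shared and marked (43.9%, 36.7 to 51.3), against 675 of 3665 on the other chromosomes (18.4%, 17.2 to 19.7). The ratio was 2.38 and the difference 25.5 points (18.5 to 32.7). Both steps of the rule contributed, since 72.5% of the chromosome 19 regions were shared, against 52.6% elsewhere, and 60.6% of the shared ones were marked, against 35.0%. Chromosomes 14 (30.7%) and 17 (26.7%) came next and chromosome 10 was lowest, with 3 of 69 (4.35%). It was singled out after its values had been seen.

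The 83 shared marked regions of chromosome 19 also had higher median percentiles in both NeuroD1 lists than the other shared marked regions. Their median percentile was 72.8 in H82 and 78.7 in H524, against 63.6 and 70.2 for those on the other chromosomes. The mark was listed in both lines at 48.2% of them, against 49.2% elsewhere, a difference of −0.992 points (−12.1 to 10.2). The H82 mark was at 84.3% of them, against 92.3% elsewhere, a difference of −7.96 points (−17.4 to −1.29), and the H524 mark at 63.9%, against 56.9%, a difference of 6.97 points (−4.38 to 17.2). The H82 mark under them was at a median percentile of 67.9, against 79.2 elsewhere, and the H524 mark at 82.1, against 71.0. No interval was computed for these medians. The other NeuroD1 regions of chromosome 19 were not set beside them, so the medians may not be particular to the shared marked ones.

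**Figure D5:**
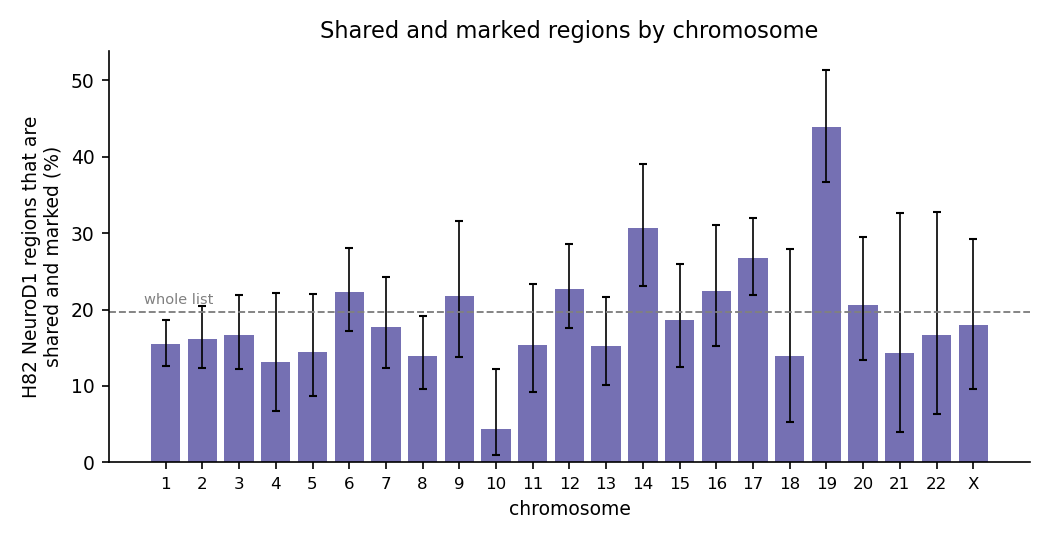
Share of the H82 NeuroD1 regions of each chromosome that were shared with H524 and marked, in percent; bars start at 0, whiskers are 95% exact binomial intervals and the dashed line is the whole list at 19.7%. Chromosome 19 stands at 43.9% and chromosome 10 at 4.35%.

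Most shared marked regions had no other shared marked region within 100 kb. Distances were taken only among the 758, and no spacing was computed for other NeuroD1 regions, so these values are a description. The median distance to the nearest other one was 373 kb, 58 (7.65%) were within 10 kb of another and 220 (29.0%) within 100 kb. Chaining gaps of up to 100 kb gave 628 groups, of which 538 held 1 region and 22 held 3 or more. The largest, 8 regions over 162 kb at chr14:57197114-57359479, had the mark in both lines at 6 and in H82 alone at 2. The next largest were 2 groups of 6 on chromosome 19, at chr19:17377507-17581347 with the mark in both lines at 5, and at chr19:50179692-50373127 with the mark in both lines at 1.

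Part of the chromosome 14 group of 8 sat on the widest marks. One H82 H3K4me3 region, chr14:57269304-57283506, was 14.2 kb wide with 27 summits, ranked 24 and held 5 shared marked regions. In H524 the mark at chr14:57276218-57284269 was 8.05 kb wide, ranked 167 and held 3. The group's median percentile was 83.7 in H82 and 85.7 in H524. Inside that H82 mark, chr14:57273063-57273826 stood at H82 rank 600 (percentile 84.4) and chr14:57276358-57277243 at rank 1016 (percentile 73.7). Both had their middles covered in both lines, the first by an H524 mark of 1.89 kb and the second by that of 8.05 kb. Elsewhere on wide marks, chr17:20776643-20777072 ranked 3568 in H82 and 1784 in H524 on an H82 mark of 8.66 kb without a mark in H524. At chr3:185655398-185655999, ranks 1567 and 15139, marks of 5.98 kb in H82 and 5.94 kb in H524 covered the middle.

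The marks under the shared marked regions were wide against their whole lists and much like those under other NeuroD1 regions. Of the 720 H82 H3K4me3 regions that they touched, 186 (25.8%, 22.7 to 29.2) were in the widest 10% of that list, against 27.4% (23.3 to 31.7) of those touched by the marked regions of H82 alone. In H524, 96 of 458 (21.0%) were in the widest 10%, against 20.7% (15.0 to 27.3). The part that width alone gives to the chance of overlap was not tested.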

How the data were processed

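Per the labels, NeuroD1, H3K4me3 and input chromatin of untreated H82 and H524 cells were sequenced, with 1 library each. Tools in the submitters' processing notes are MACS2 2.1.1, Bowtie 1.1.2, SAMtools 1.9, Trimmomatic 0.38, Picard 1.118, bcl2fastq 1.8.4, R 3.5.1 and ChIPseeker 1.18.0, and the build is hg19. Peak calling settings and any use of input are not given in the sources. The authors deposited 1 list of regions for each antibody library. The score that the authors made for each region and deposited in a column without a header is read from its values as −log10 of an adjusted p-value from peak calling, with lowest values near 1.30.

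Entries with identical coordinates were merged into 1 region with its highest score, and summits were counted as its entries. Overlaps of at least 1 bp were found with Python 3.11.15, numpy 2.4.6 and pandas 2.3.3, and bedtools 2.31.1 gave the same 758. Percentiles are ranks within a list. Shares have exact Clopper-Pearson intervals (scipy 1.17.1), differences of shares Newcombe intervals, the ratio a Katz interval and medians order-statistic intervals. The overlap step was tested on simulated data. Figures used matplotlib 3.10.9. Starts are 1-based.

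The members, lists and comparisons were chosen with earlier results of these data known. Regions named are the 10 with the highest smaller percentile of both NeuroD1 lists outside chromosome 8, 3 on it, the 5 highest by H82 score for each state of the mark, 3 on the widest marks of each line, and 3 on each side of the limit. The groups of regions and the chromosome 19, score band and arrangement counts were added after values were seen. Gene names, start sites, E-boxes, gene lists, cell type markers and sequences are not reported, since no hg19 genome or annotation was used here.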

Additional observations from a re-analysis of the deposited data

Results flagged for a closer look

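The shared marked regions differed from the shared unmarked ones in opposite directions in the 2 lines. The median percentile was 7.65 points higher in the H82 NeuroD1 list and stood at −5.55 points in the H524 NeuroD1 list, 13.2 points apart. The difference between the lines was not tested, since each line has 1 library. With overlaps of at least 50% of the shorter region the H82 difference was 0.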

How the results depend on the processing

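Of 115 alternatives run over 15 results, 72 stayed within the interval of the value reported (for the number of regions, within 1.5 times of 758), 43 moved beyond that and 0 reversed. Of the 72, the H82 rank difference was 4.20 (−2.47 to 10.9) with the mark in both lines, and the band difference on the H82 mark −14.0 (−27.9 to 1.84) with NeuroD1 lists of equal length. No paired analysis was possible because each antibody and line has 1 library, and leaving out a library removes a list. The planned results on start sites and E-boxes, with their alternatives, were not run for want of an hg19 annotation. The alternatives on rank differences, arrangement, score bands and chromosome 19 were chosen after seeing the data. List length, which depends on unknown depth, limits every share. The cause of each move was not tested.

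With lists limited to scores at or above their median, there were 327 regions, 40.7% with the mark in both lines, 46.2% in H82 alone and 13.1% in H524 alone. Median percentiles were 83.7 in H82 and 84.4 in H524, the median width 551 bp, the distance between middles 445 bp and the H524 rank difference −2.14. With NeuroD1 lists of equal length there were 277 regions, with median percentiles of 84.0 and 92.5, a width of 570 bp, rank differences of 18.5 in H82 and −0.699 in H524, flanked shares of 15.0% and 25.6%, a band difference of −52.4 on the H524 mark and a chromosome 19 ratio of 2.99. The mark in both lines gave 372.

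With 50% of the shorter region there were 515 regions, of which 36.3% had the mark in both lines and 53.8% in H82 alone, the distance was 308 bp, the H82 rank difference 0, the flanked shares 1.60% and 4.28%, and the band differences −9.16 and −23.6. With gaps of up to 1 kb there were 1089 regions, of which 67.3% had the mark in both lines, 26.7% in H82 alone and 5.97% in H524 alone, the width was 450 bp, the distance 555 bp, the H82 flanked share 15.6% and the H524 band difference −25.6. The middle of the H524 partner gave an H82 flanked share of 15.3%, and sides of 500 bp gave 7.80% in H82 and 13.7% in H524. The band difference on the H82 mark was −8.72 among wide regions and −8.45 by H524 score. On the H524 mark it was −28.0 among narrow regions, −15.8 by H524 score and −27.0 over all shared regions with the mark within 1 kb.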
